A study of Mus musculus with 8 samples.

Results

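The AP-1 transcription factors of LPS-stimulated macrophages are described here through 10 genes, chosen by symbol: *Fos*, *Fosb*, *Fosl1* and *Fosl2* of the FOS family, *Jun*, *Junb* and *Jund* of the JUN family, and *Atf3*, *Batf* and *Maff*. All 10 were found among the 55487 genes of the table, each in 1 row. J774A.1, a mouse macrophage cell line, was given LPS (1 μg/mL), a glycolipid of the bacterial outer membrane that Toll-like receptors sense, or LPS (1 μg/mL) with ursodeoxycholic acid (UDCA, 1 mM), a secondary bile acid, for 24 h. RNA sequencing was performed on 4 samples of each treatment (LPS and LPS + UDCA). Both groups received LPS, and cells without LPS were not analysed here, so every comparison is between levels under LPS. The labels do not say whether the 4 samples of a group came from separate cultures, so the p-values measure only the spread between these samples, which may be technical.

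AP-1 is a dimer of proteins with a basic region that holds DNA and a leucine zipper that holds the partner. FOS proteins pair with JUN proteins, JUN proteins can also pair with each other, and the dimer reads short palindromic sites in promoters and enhancers. In macrophages, Toll-like receptors switch AP-1 on within minutes through MAP kinases, which both raise transcription of *Fos* and *Jun* and phosphorylate the proteins. ATF3 is a stress-induced relative that restrains part of the LPS response, BATF pairs with JUN proteins and works with IRF factors, and MAFF is a small MAF protein that lacks an activation domain.

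Values are TPM, reads per gene divided by gene length and scaled within a library, so levels can be compared between genes. TPM keeps no read number, so sequencing depth is unknown and errors are SDs between samples. The libraries summed to 973190 to 977485 TPM with LPS and to 958918 to 962737 TPM with LPS + UDCA, without overlap. In the 8 libraries, 11412 to 11730 genes reached 1 TPM. Of 8 macrophage markers, 7 were at 1 TPM or more in every library, and *Mertk* was listed at 0 in all of them. These 7 markers went in both directions: *Itgam*, *Lyz2*, *Cd68* and *Csf1r* were lower with LPS + UDCA past a fold change of 2 and an FDR of 0.05 (log2 fold changes of -2.91, -2.19, -1.39 and -1.35), *Adgre1* and *Fcgr1* were higher (1.27 and 1.48), and *Ptprc* was higher by less (0.47). Their summed TPM, of which *Lyz2* is the largest term, was 2799 to 2977 with LPS and 916 to 999 with LPS + UDCA. The part of these differences in the results below was not tested. Marker lists for T cells, B cells, epithelial cells and fibroblasts summed to at most 0.49 TPM in any library. Of the 4 neutrophil markers, *Ly6g* and *Elane* were listed at 0 throughout, and the list summed to 18.6 to 25.4 TPM with LPS and 2.72 to 9.03 TPM with LPS + UDCA. Most of this sum was *S100a8*, at 19.2 and 4.52 TPM on average, and the rest was *S100a9*, at 2.17 and 0.24 TPM. In RNA from whole cultures, fewer cells of one kind and less RNA per cell cannot be told apart.

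With UDCA, the FOS family lost *Fos*, *Fosb* and *Fosl2* transcripts, by 2.52 to 4.54 times in mean TPM, while *Fosl1* was 1.33 times higher. In the JUN family, *Jun* was 1.64 times higher and *Junb* was lower, at 0.634 of its LPS level. *Atf3* was 1.31 times higher, and *Batf* and *Maff* were lower, at 0.765 and 0.785 of their LPS levels. Differences were tested with limma on log2(TPM + 1) over the 11796 genes whose mean reached 1 TPM, as all 10 members did. Past a fold change of 2 and an FDR under 0.05, 3 of the 10 were lower, where 8.44% of all genes tested were lower. No member was higher past both thresholds (0 of 10 from limma, and 3 at an unadjusted p under 0.05), where 8.71% of all genes tested were higher. At an FDR under 0.05 without a minimum fold change, 6 members were lower and 3 higher, against 32.3% and 40.2% of all genes tested. For 9 of the 10 members the groups had separate ranges, and 66.8% of all genes tested had no overlap, so a lack of overlap does not set the members apart. The median log2 fold change was -0.35 over the members and 0.082 over all genes tested.

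**Figure D1:**
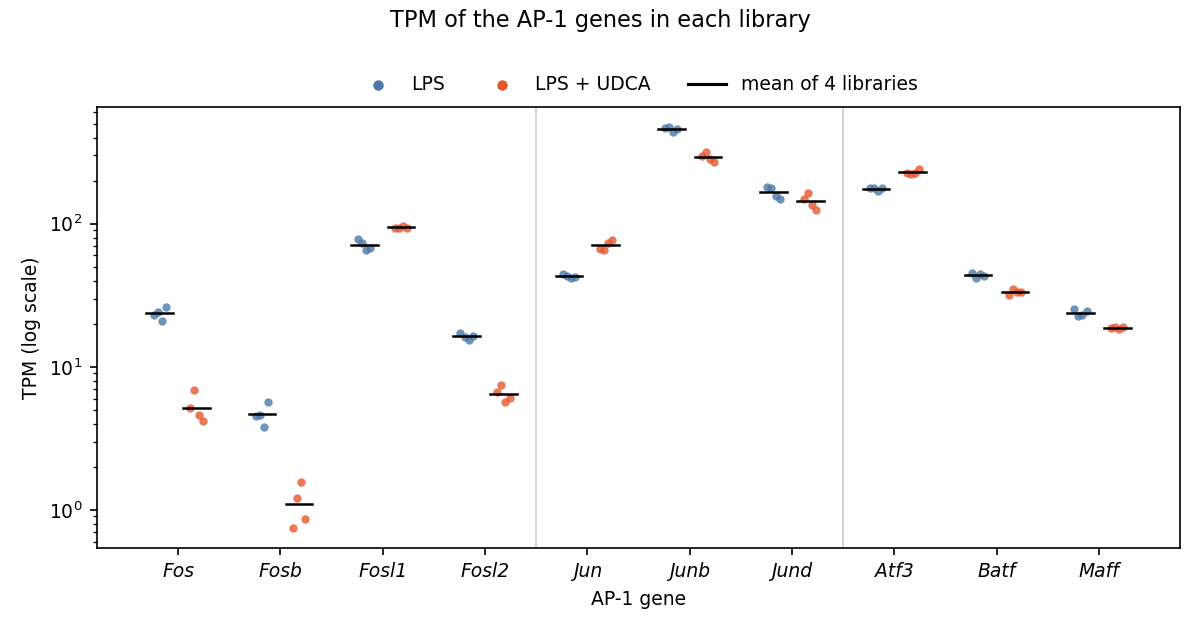
TPM of the 10 AP-1 genes on a log axis, 1 point per library, 4 libraries with LPS (blue) and 4 with LPS + UDCA (red), with the mean of each group as a black line. Vertical lines part the FOS family, the JUN family and the other genes. *Fos*, *Fosb* and *Fosl2* drop furthest, and the groups overlap only for *Jund*.

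Levels spanned 2 orders of magnitude. With LPS, *Junb* was the highest at 459 TPM on average, followed by *Atf3* (175 TPM), *Jund* (166 TPM), *Fosl1* (70.9 TPM), *Batf* (43.6 TPM), *Jun* (42.95 TPM), *Maff* (23.9 TPM), *Fos* (23.6 TPM), *Fosl2* (16.3 TPM) and *Fosb* (4.64 TPM). The libraries of 3 neighbouring pairs in this order overlapped: *Atf3* with *Jund*, *Batf* with *Jun*, and *Maff* with *Fos*. With LPS + UDCA, *Junb* was still the highest (291 TPM), and *Jun* stood above *Batf* with no overlap. *Fosl2* and *Fos* overlapped at 6.48 and 5.20 TPM, and all other neighbours were separate. Among all genes tested, ranked by mean TPM, *Fos* lay at percentile 63.3 with LPS and 25.6 with LPS + UDCA, and *Jun* at 76.8 and 85.6.

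*Fos*, the founding member of the family and a classical immediate-early gene, lies on chromosome 12 from 85473890 to 85477273 of GRCm38. It was at 23.07, 24.04, 20.86 and 26.37 TPM in LPS samples 1 to 4 and at 5.13, 6.84, 4.62 and 4.19 TPM in LPS + UDCA samples 1 to 4. All LPS libraries were above 20 TPM and all LPS + UDCA libraries below 7 TPM. The means were 23.6 ± 2.28 TPM (SD, n = 4) and 5.20 ± 1.16 TPM, a log2 fold change of -2.0 with a standard error of 0.13 (limma, adjusted p = 9.3e-07 over all genes tested). *Fosb*, which also yields a shortened protein by alternative splicing, lies on chromosome 7 from 19302696 to 19310051. Its values were 4.54, 4.59, 3.77 and 5.67 TPM with LPS and 0.75, 1.22, 1.56 and 0.86 TPM with LPS + UDCA. *Fosb* was thus the scarcest member in both groups, and its groups did not overlap. Its log2 fold change of -1.43 with a standard error of 0.15 (limma, adjusted p = 2.7e-05) understates the change of a gene at this level, since the ratio of the mean TPM was 4.23. *Fosl2*, which encodes FRA-2, lies on chromosome 5 from 32135801 to 32157842. With LPS it was at 17.18, 16.27, 15.45 and 16.39 TPM, and with LPS + UDCA at 6.64, 7.49, 5.69 and 6.10 TPM. All LPS libraries were above all LPS + UDCA libraries, and the log2 fold change was -1.22 with a standard error of 0.082 (limma, adjusted p = 1.3e-06). The calls of *Fosb* and *Fosl2* rest on the scale, since with a pseudocount of 5 their log2 fold changes were -0.66 and -0.90, short of a fold change of 2.

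*Fosl1*, on chromosome 19 from 5447547 to 5455946, encodes FRA-1, a FOS protein without the activation domain of FOS. It went the other way, from 77.71, 72.88, 65.48 and 67.60 TPM with LPS to 93.32, 93.53, 96.27 and 93.42 TPM with LPS + UDCA. Every LPS + UDCA library was above every LPS library. The log2 fold change was 0.41 (95% interval 0.28 to 0.53, adjusted p = 1.1e-04 from limma), which is below a fold change of 2. Of the annotated exon bases of *Fosl1*, 57.2% also lie in exons of *Ccdc85b* on the opposite strand, which was at 4.91 ± 0.336 TPM with LPS and 5.03 ± 0.284 TPM after UDCA was added. Whether the counting used the strand is not given in the sources used here.

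*Jun* lies on chromosome 4 from 95049034 to 95052222 and encodes c-JUN, the most potent activator of its family. It was at 44.83, 43.23, 41.52 and 42.23 TPM with LPS and at 66.45, 65.13, 73.39 and 76.69 TPM with LPS + UDCA. The groups were well apart, and the log2 fold change was 0.70 (95% interval 0.56 to 0.83, adjusted p = 5.3e-06 from limma). *Junb*, on chromosome 8 from 84974484 to 84978718, encodes a JUN protein that activates transcription less than c-JUN at many promoters. Its values were 469.18, 473.62, 439.42 and 455.77 TPM with LPS and 296.88, 316.46, 283.53 and 268.41 TPM with LPS + UDCA. Each LPS + UDCA library was lower than each LPS library, with a log2 fold change of -0.66 (95% interval -0.77 to -0.54, adjusted p = 3.2e-06 from limma). *Junb* and *Prdx2* share 173 exon bases on opposite strands, 7.52% of those of *Junb*, and *Prdx2*, which encodes a peroxiredoxin, was at 129 ± 2.23 TPM with LPS and 79.1 ± 3.28 TPM after UDCA was added.

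*Jund*, on chromosome 8 from 70698949 to 70700616, is the JUN gene that is expressed most constantly in resting cells. It was at 181.90, 178.17, 156.39 and 149.30 TPM with LPS and at 147.79, 164.52, 135.33 and 124.91 TPM with LPS + UDCA. These ranges overlapped, and the log2 fold change of -0.22 (95% interval -0.43 to -0.0074, adjusted p = 0.060 from limma) did not pass an FDR of 0.05. On the linear scale the interval covers 0.742 to 0.995 of the LPS level. With median-of-ratios scaling the adjusted p was 0.013, with only genes at 1 TPM or more in every library it was 0.045, without LPS sample 4 it was 0.035 and without LPS + UDCA sample 2 it was 0.015, all from limma. In the other alternatives, apart from the replicate block described at the end, it stayed above 0.05. It was 0.18 with quantile normalization, 0.12 with all genes above 0 TPM and 0.15 without LPS sample 1 (limma). The antisense gene *Gm11175* covers 52.6% of the exon bases of *Jund* and was listed at 13.86, 19.30, 11.76 and 10.17 TPM with LPS and at 0, 25.77, 14.17 and 0 TPM with LPS + UDCA. Reads of the antisense gene and of *Jund* cannot be told apart without strand.

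*Atf3*, on chromosome 1 from 191170296 to 191218039, had the second highest mean TPM of the members in both groups, though with LPS it overlapped *Jund*. Its values were 177.58, 177.73, 168.19 and 176.18 TPM with LPS and 224.23, 222.57, 227.40 and 242.13 TPM with LPS + UDCA. The lowest LPS + UDCA library was above the highest LPS library, and the log2 fold change was 0.39 (95% interval 0.30 to 0.47, adjusted p = 1.3e-05 from limma). *Batf*, on chromosome 12 from 85686669 to 85709087, was at 45.36, 41.69, 44.36 and 42.98 TPM with LPS and at 31.72, 35.07, 33.42 and 33.16 TPM with LPS + UDCA. *Maff*, on chromosome 15 from 79346621 to 79359076, was at 25.43, 22.71, 22.91 and 24.38 TPM with LPS and at 18.67, 18.94, 18.32 and 19.00 TPM with LPS + UDCA. Both were lower in every LPS + UDCA library than in every LPS library, by less than a fold change of 2. The log2 fold changes were -0.38 for *Batf* (95% interval -0.48 to -0.27, adjusted p = 7.0e-05 from limma) and -0.33 for *Maff* (95% interval -0.45 to -0.22, adjusted p = 2.9e-04 from limma). In an exact permutation test on TPM over the 70 arrangements of the libraries, 2-sided, 9 members reached p = 0.029, the smallest p the design allows, and *Jund* had p = 0.11. Groups with separate ranges always give this smallest p, and 66.8% of all genes tested had separate ranges. The test thus adds nothing to the lack of overlap.

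**Figure D2:**
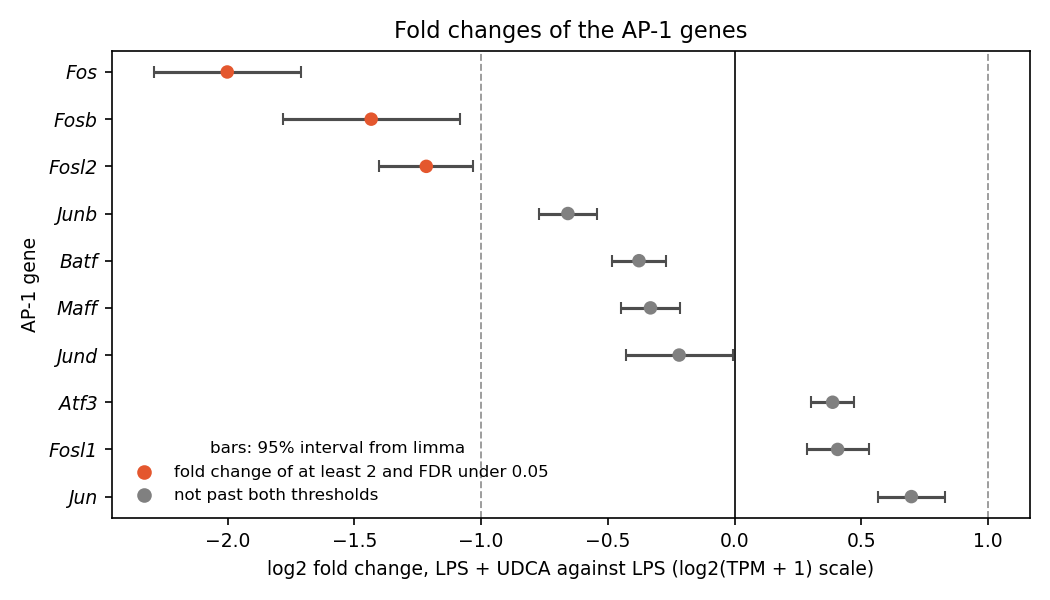
Log2 fold change of each AP-1 gene, LPS + UDCA against LPS, on the log2(TPM + 1) scale, with 95% intervals from limma over 4 libraries a group. Dashed lines mark a fold change of 2 in each direction and red points passed both thresholds. *Fos*, *Fosb* and *Fosl2* lie beyond the dashed line, and *Jun* is the highest at 0.70.

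The opposite moves of the FOS genes left their summed level close in the 2 groups and changed its makeup. The summed TPM of the 4 FOS genes was 115 ± 7.15 (SD, n = 4) in LPS samples and 107 ± 2.07 in LPS + UDCA samples, and the values overlapped, at 122.50, 117.78, 105.56 and 116.03 TPM against 105.84, 109.08, 108.14 and 104.57 TPM. *Fosl1* held 61.4% ± 2.21 of the FOS sum with LPS and 88.1% ± 1.63 with LPS + UDCA. *Fos* held 20.4% ± 1.66 and 4.85% ± 1.01, *Fosl2* held 14.2% ± 0.349 and 6.06% ± 0.679, and *Fosb* held 4.02% ± 0.596 and 1.02% ± 0.329. The lowest *Fosl1* share with LPS + UDCA was 85.7%, above the highest with LPS, which was 63.4%. The 3 JUN genes summed to 669 ± 30.96 TPM with LPS and 505 ± 32.2 TPM after UDCA was added, with no overlap. Of the JUN sum, *Junb* held 68.7% ± 1.28 with LPS and 57.7% ± 0.436 with LPS + UDCA, *Jun* held 6.43% ± 0.142 and 14.04% ± 1.96, and *Jund* held 24.8% ± 1.36 and 28.3% ± 1.56. The JUN sum was 5.80 ± 0.208 times the FOS sum with LPS and 4.72 ± 0.240 times with LPS + UDCA. The groups were not compared by a test on these sums and shares, and transcripts say nothing of the amounts of protein.

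**Figure D3:**
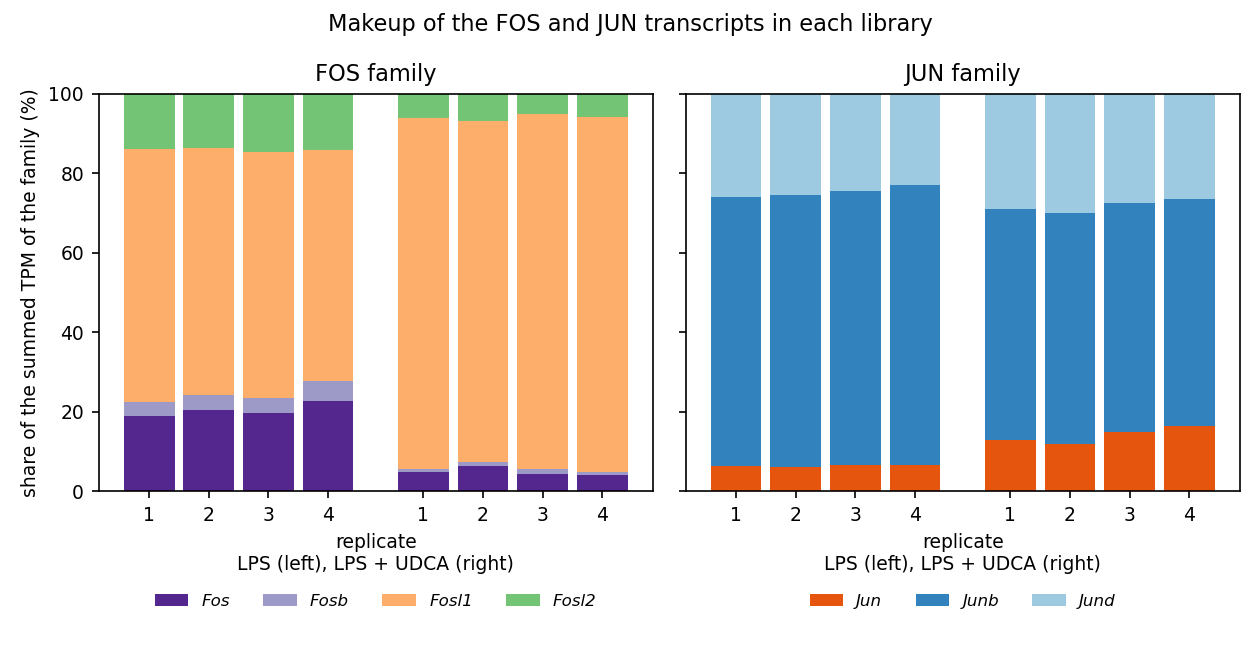
Share of each gene in the summed TPM of the FOS family (left) and the JUN family (right), in percent, 1 bar per library, with replicates 1 to 4 of LPS and then of LPS + UDCA. *Fosl1* fills 58.3% to 63.4% of the FOS bars with LPS and 85.7% to 89.3% with LPS + UDCA, and *Jun* rises from 6.22% to 6.52% to 11.9% to 16.3% of the JUN bars.

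FOS and JUN genes are themselves targets of factors of the CREB, ATF and AP-1 kind. The 250 bases before the RefSeq start were read on GRCm38.p6 for 9 of the 10 members (11 windows, of which *Maff* has 3). The windows of 2 members that were lower with UDCA, *Fos* and *Fosb*, and of 2 that were higher, *Jun* and *Atf3*, are shown because their transcripts moved in opposite directions. Capitals mark matches on either strand to the AP-1 site TGACTCA, the ATF/CRE core TGACGT, the octamer TGACATCA, the TATA box TATAAA, or the CArG box bound by serum response factor. In 1 window of *Maff* the ATF/CRE core matched on both strands, and these matches overlap. The motifs were chosen with these sequences in view. Sequence further upstream was not read, so a window without a motif, such as the *Fos* window without a CArG box, does not mean that the promoter lacks it.
Fos (chr12:85473640-85473889, plus strand): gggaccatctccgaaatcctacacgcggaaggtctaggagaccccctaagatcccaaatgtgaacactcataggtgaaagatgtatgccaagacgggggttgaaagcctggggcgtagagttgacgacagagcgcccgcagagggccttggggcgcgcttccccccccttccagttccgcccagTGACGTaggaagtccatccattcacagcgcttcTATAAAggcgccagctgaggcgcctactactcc
Fosb (chr7:19310046-19310295, minus strand): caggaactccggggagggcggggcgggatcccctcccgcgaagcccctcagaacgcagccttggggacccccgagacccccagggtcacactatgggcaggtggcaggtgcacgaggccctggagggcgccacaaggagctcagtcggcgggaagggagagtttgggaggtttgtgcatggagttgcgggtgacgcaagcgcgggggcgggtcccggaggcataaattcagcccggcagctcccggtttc
Jun (chr4:95052223-95052472, minus strand): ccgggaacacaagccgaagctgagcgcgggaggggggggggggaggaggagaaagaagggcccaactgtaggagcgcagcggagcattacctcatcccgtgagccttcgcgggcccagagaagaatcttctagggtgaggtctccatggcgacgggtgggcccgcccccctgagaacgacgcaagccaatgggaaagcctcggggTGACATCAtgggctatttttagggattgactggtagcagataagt
Atf3 (chr1:191183334-191183583, minus strand): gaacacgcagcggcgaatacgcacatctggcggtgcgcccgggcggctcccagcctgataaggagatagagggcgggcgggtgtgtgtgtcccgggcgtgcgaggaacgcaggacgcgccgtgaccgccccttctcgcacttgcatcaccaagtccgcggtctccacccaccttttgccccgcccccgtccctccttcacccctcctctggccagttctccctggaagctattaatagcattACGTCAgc
*Fos* holds TGACGT from 66 to 61 bases and TATAAA from 33 to 28 bases before its start. *Jun* holds TGACATCA from 45 to 38 bases before its start, and *Atf3* holds the reverse complement of TGACGT from 8 to 3 bases before its start. The shown window of *Fosb* holds none of the 5 motifs, and neither do those of *Fosl2*, *Junb* and *Jund*. RefSeq and GENCODE starts differ for some members: the *Fosl2* window lies wholly in exons of *Fosl2*, the *Jund* window ends well before the *Jund* start given above, and the *Atf3* window lies inside the *Atf3* gene before an internal start. The ATF/CRE core was also found in *Batf* and in 1 window of *Maff*, and TGACATCA in another window of *Maff*. Of 32817 windows of the same length from all promoters, 6.46% hold TGACGT, 2.93% TGACATCA, 12.4% TATAAA, 4.46% TGACTCA and 1.47% a CArG box. The cores were present both in members that were lower and in members that were higher with UDCA, and a match is a run of letters, not a shown binding site. Whether the motifs had a part in the changes was not tested.

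The members also differ in gene structure. In GENCODE M21 the longest coding transcripts of *Jun*, *Junb* and *Jund* have 1 exon, those of *Fos*, *Fosb*, *Fosl1*, *Fosl2* and *Atf3* have 4, and those of *Batf* and *Maff* have 3. Words AUUUA in the 3′ untranslated stretch are a mark of short-lived transcripts such as that of *Fos*. There were 8 in *Fosl2*, 4 each in *Fos*, *Jun* and *Maff*, 3 in *Atf3*, 2 in *Junb*, 1 each in *Fosb*, *Fosl1* and *Jund*, and none in *Batf*. Among the 10342 genes tested with such a stretch, 68.7% held at least 1 and 21.8% at least 5, with a median of 1. These counts were not divided by length. The stretch ran from 335 bases in *Batf* to 4653 in *Fosl2*, with 815 in *Fos*, against a median of 1097.5 over these genes. Members with 4 words were found among those lower (*Fos*, *Maff*) and higher (*Jun*) with UDCA. A part of the AUUUA words in the changes was not tested. At most 0.062% of the 31-base words of any member occurred in a transcript of another gene, read in the transcript direction only. Reads shared with near-identical copies on that strand are thus few. Overlaps on the opposite strand are not counted, such as the 57.2% of *Fosl1* and 52.6% of *Jund* exon bases given above.

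The levels of genes around AP-1 were read in 8 lists. All 8 were compiled with results of these samples known, so their counts and medians are descriptions and no independent evidence of a direction. Of 17 tested immediate-early genes, which are induced within minutes by the same signals as *Fos*, 9 were lower past both thresholds (8.44% of all genes tested were) and 0 higher (limma, and 1 higher at an unadjusted p under 0.05), with a median log2 fold change of -1.10 against 0.082 over all genes tested. *Egr1*, a zinc finger factor switched on with *Fos*, had the largest drop of these, from 35.9 ± 3.99 to 3.42 ± 0.554 TPM (log2 fold change -3.07, limma adjusted p = 2.8e-08), and *Klf2* the smallest of the 9, from 54.0 ± 2.38 to 24.9 ± 3.86 TPM (log2 fold change -1.10). *Dusp1*, a phosphatase of MAP kinases named after its values were seen, was at 61.5 ± 2.61 and 59.5 ± 5.70 TPM (log2 fold change -0.050, limma adjusted p = 0.52). Without LPS + UDCA sample 3, 1 gene of this list was higher. Of 12 factors that act on such promoters, *Elk3*, an ETS partner of serum response factor, was lower past both thresholds (log2 fold change -1.31) and *Mef2a* was higher (1.04). That is 16.7% of the list called, near the 17.1% of all genes tested. *Mef2a* lost the call with median-of-ratios scaling, quantile normalization, and without LPS sample 3 or LPS + UDCA sample 4, and neither *Mef2a* nor *Elk3* passed with a pseudocount of 5.

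Among 29 tested genes of the MAP kinase cascade, 4 were higher past both thresholds and 0 lower (limma, and 14 lower at an unadjusted p under 0.05), with a median log2 fold change of -0.11. This is 13.8% of the list called, against 17.1% of all genes tested. Among them were *Map3k5* (log2 fold change 1.21), which encodes the stress kinase ASK1, *Tab2* (1.12), an adaptor of TAK1, and *Mapk9* (1.01), which encodes JNK2. With median-of-ratios scaling 2 were higher and 2 lower, and with quantile normalization 2 were higher and 1 lower. With a pseudocount of 5, 0 were higher and 0 lower, so these calls rest on the scaling and on the pseudocount. Leaving out LPS sample 3 or LPS sample 4 gave 1 gene lower, and leaving out LPS + UDCA sample 2 gave 2.

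Of 11 other bZIP genes tested, 4 were higher past both thresholds and 0 lower (limma, and 4 lower at an unadjusted p under 0.05), with a median log2 fold change of 0.36. So 36.4% of the list was called, against 17.1% of all genes tested. *Bach1*, a heme-sensing repressor that pairs with small MAF proteins, was the highest, from 1.91 ± 0.177 to 10.8 ± 1.27 TPM (log2 fold change 2.01). *Nfe2l1*, *Nfe2l2* and *Mafg*, which encode NRF1, NRF2 and a small MAF partner, had log2 fold changes of 1.10, 1.04 and 1.04, and with median-of-ratios scaling 2 of the 4 passed. With a pseudocount of 5, 2 genes of this list were higher, and with a pseudocount of 0.1, 1 was lower. *Maff*, the small MAF gene among the members, went the other way from *Mafg*. *Jdp2*, which encodes a repressor that pairs with JUN proteins and was named after its values were seen, was at 130.3 ± 3.64 and 77.7 ± 3.35 TPM (log2 fold change -0.74, limma adjusted p = 4.0e-07).

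Of 14 tested stress and C/EBP partners of ATF3, 4 were higher and 2 lower past both thresholds, and the median log2 fold change was 0.68. Among these 14, 42.9% were called, against 17.1% of all genes tested. *Atf5* was the highest (log2 fold change 1.46) and *Cebpb* the lowest, from 113 ± 49.1 to 44.4 ± 8.33 TPM (log2 fold change -1.24, limma adjusted p = 0.0043). Without LPS + UDCA sample 4, 1 of these genes was lower. *Atf4*, which induces *Atf3* under amino acid and endoplasmic reticulum stress and was named after its values were seen, was at 475 ± 2.09 and 926 ± 29.6 TPM (log2 fold change 0.96), just under a fold change of 2. Of 17 tested genes for the turnover and cofactors of AP-1 proteins, *Crebbp*, a coactivator, was higher (log2 fold change 1.31) and *Trib1*, a scaffold of the COP1 ubiquitin ligase, was lower (-1.99), so that 11.8% of the list was called, against 17.1% of all genes tested. Neither passed with a pseudocount of 5, and *Trib1* was not among the genes at 1 TPM or more in every library. Of 3 tested partners of BATF, *Irf4* was lower past both thresholds, from 2.90 ± 0.296 to 0.535 ± 0.0480 TPM (log2 fold change -1.34), and 0 were higher (limma, and 0 higher at an unadjusted p under 0.05). So 33.3% of this short list was called, against 17.1% of all genes tested. *Irf4* did not pass with a pseudocount of 5, and was not among the genes at 1 TPM or more in every library.

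Of 20 tested genes described as AP-1 targets, 10 were lower and 5 higher past both thresholds, and the median log2 fold change was -0.99. In all, 75.0% of these 20 were called, against 17.1% of all genes tested. *Fabp4*, a fatty acid binding protein gene, was the lowest (log2 fold change -4.76) and *Il23a*, a cytokine subunit gene, the highest (2.82). *Plaur* and *Ptgs2* stand in this list and among the immediate-early genes. Over the 121 tested genes of the 8 lists together, 19 were higher and 23 lower past both thresholds, or 34.7% called against 17.1% of all genes tested.

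**Figure D4:**
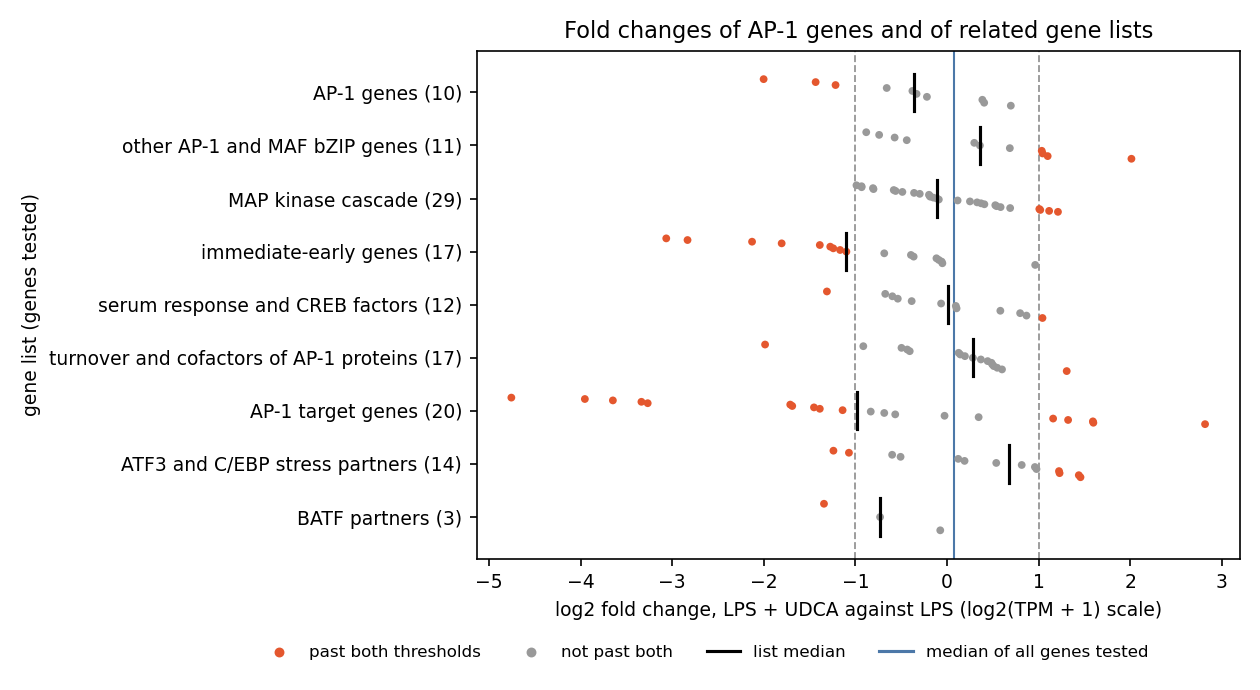
Log2 fold change of every tested gene of the AP-1 list and of 8 related lists, LPS + UDCA against LPS, on the log2(TPM + 1) scale, 1 point per gene. Red points passed both thresholds, black bars are list medians, the blue line is the median of all genes tested (0.082) and dashed lines mark a fold change of 2. The immediate-early genes (median -1.10) lie mostly left of the blue line and the stress partners of ATF3 (median 0.68) mostly right of it.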

How the data were processed

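The authors deposited a table of TPM with 1 column for each of 8 libraries, made from J774A.1 RNA with an Illumina TruSeq kit. The unit was taken from the column totals, 958918 to 977485, which alone do not establish it. The submitters' processing notes name Bowtie 0.12.2 and the builds mm10 and GRCm38. The counting program and its use of strand are not given in the sources used here. Genes whose mean reached 1 TPM were tested as log2(TPM + 1) with limma 3.58.1 in R 4.3.3 (lmFit, eBayes with trend), with Benjamini-Hochberg adjustment over all genes tested. The thresholds were a fold change of 2 and an FDR of 0.05. Single members were compared by an exact permutation test. The members and lists were chosen with earlier results of these data known. Named genes were all members and the highest and lowest gene past the thresholds in each list, or every such gene where fewer than 5 passed. A gene that the rule names is not reported here. Positions and structures are from GENCODE M21 (GRCm38) and start sites from RefSeq (GRCm38.p6). Alternatives covered scaling, filters, pseudocounts, the replicate block, the trend, single libraries and the fold change minimum. Python 3.11.15 was used for tables.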

Additional observations from a re-analysis of the deposited data

Results flagged for a closer look

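Dixon's test at the 95% level was applied to 62 sets of 4 values (TPM, sums and shares of the members, within a treatment), with the distance of the most extreme library to the next as a share of the whole spread. It picked out 2 sets, where chance gives 3.1. For *Fosl1*, LPS + UDCA replicate 3 was highest, at 96.27 TPM (ratio 0.929). For *Atf3*, LPS replicate 3 was lowest, at 168.19 TPM (ratio 0.838).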

How the results depend on the processing

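Each of the 10 members kept its direction in every alternative that could be fitted. When 1 TPM was required of all 8 libraries, *Fosb* was not tested and 2 members were lower. With a pseudocount of 5, 1 member (*Fos*) was lower past both thresholds, as were 532 of all genes, while 357 of all genes and 10 genes of the 8 related lists were higher. With no fold change minimum, 3 members were higher and 6 lower, and 4741 and 3807 of all genes. With each library left out in turn, 3 members stayed past both thresholds. The change in the share of *Jund*, -0.19 percentage points of all 10 members, was 3.43 points within the JUN family. Of 240 counts for single lists under alternatives, 215 were within 1.5 times the reported count.

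The groups share replicate numbers, and a replicate block in the fit left 3 members lower and 0 higher (limma), as without it. Around the group means, deviations had correlations of -0.035 to 0.15 in the 4 same-numbered pairs (mean 0.088) and -0.15 to 0.16 in the 12 others (mean -0.029). Not every same-numbered pair had a positive correlation and the labels name no shared culture or day, so the numbers were not taken as pairs, although 5 of 8 libraries correlated best with their own number, a hint from the data and not the design. The block gave *Jund* an adjusted p of 0.0038 at the same log2 fold change of -0.22. Over all alternatives its adjusted p ranged from 0.0038 to 0.18, and the cause was not tested. TPM without read numbers limits statements on *Fosb*, which was at 0.75 to 5.67 TPM.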
